A study of Mus musculus with 8 samples.

Results

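The genes described here carry peptides to the cell surface on classical MHC class I molecules. They are 10 rows named by symbol in the deposited table of 23366 genes: the heavy chains H2-D1 and H2-K1, the light chain B2m, the loading genes Tap1, Tap2 and Tapbp, the proteasome subunits Psmb8, Psmb9 and Psmb10, and the regulator Nlrc5. All 10 had enough counts to be among the 11721 genes tested. RNA came from sorted cells labelled as beta cells, the insulin-secreting cells of the pancreatic islets, of NOD mice aged 8 to 10 weeks. NOD mice become diabetic through an immune attack on these cells, and no treatment or added allele is named for any group. The bottom population gave 4 libraries and the top population another 4, split evenly between a batch 1 and a batch 2 that the labels name without saying what a batch is. Library numbers run from 1 to 4 within a population, with 1 and 2 in batch 1. They are not the numbers in the sample titles, where top 3 carries 1 and both top 2 and top 4 carry 3. The labels leave unsaid which property placed a cell in bottom or top, and whether any mice were pooled or shared by libraries. All p-values therefore rest on differences among libraries, which may be technical.

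Cytotoxic CD8 T cells recognise short peptides held by class I heavy chains paired with beta-2-microglobulin. The peptides are cut by the proteasome, pumped into the endoplasmic reticulum by the TAP transporter and fitted onto the heavy chain with the help of tapasin. Interferon raises most genes of this route, partly through NLRC5, and swaps the catalytic proteasome subunits for inducible ones. In type 1 diabetes and in NOD mice, islet cells are known for high class I levels. NOD mice carry the Kd and Db alleles, while mm9, the build named for these files, is the genome of a mouse with Kb and Db.

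The 250 bases before the transcription start are shown for H2-D1, H2-K1 and B2m because these genes encode the class I molecule itself, and for Tap1 because most of that window also lies before the start of Psmb9. The sequences are from RefSeq, build GRCm38.p6, which is not the build of the files. They were found by symbol for 8 of the 10 genes, all but Tap2 and Nlrc5. RefSeq lists 2 starts for H2-K1, and the window of the first is shown. Capitals mark matches on either strand to GAAANNGAA (part of the interferon response element, bound by IRF factors), TGACG (the X2 box, bound by CREB and ATF factors) and ATTGG (the Y box, bound by NF-Y).
H2-D1, chr17:35262844-35263093, plus strand: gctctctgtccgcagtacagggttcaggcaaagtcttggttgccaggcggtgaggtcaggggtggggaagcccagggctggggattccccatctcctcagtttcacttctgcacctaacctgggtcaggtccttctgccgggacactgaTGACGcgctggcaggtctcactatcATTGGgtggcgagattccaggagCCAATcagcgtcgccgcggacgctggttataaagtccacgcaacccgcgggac
H2-K1, chr17:34000348-34000597, minus strand: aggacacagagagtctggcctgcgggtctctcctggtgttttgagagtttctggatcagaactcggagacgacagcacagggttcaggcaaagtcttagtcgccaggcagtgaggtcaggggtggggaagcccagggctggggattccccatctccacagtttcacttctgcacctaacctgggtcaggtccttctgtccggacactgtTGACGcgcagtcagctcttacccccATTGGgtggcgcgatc
B2m, chr2:122147437-122147686, plus strand: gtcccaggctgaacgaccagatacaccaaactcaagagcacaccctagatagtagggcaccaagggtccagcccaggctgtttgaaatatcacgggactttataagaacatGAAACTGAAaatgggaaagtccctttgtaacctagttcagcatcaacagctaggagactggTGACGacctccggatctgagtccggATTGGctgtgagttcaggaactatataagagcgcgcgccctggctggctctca
Tap1, chr17:34187306-34187555, plus strand: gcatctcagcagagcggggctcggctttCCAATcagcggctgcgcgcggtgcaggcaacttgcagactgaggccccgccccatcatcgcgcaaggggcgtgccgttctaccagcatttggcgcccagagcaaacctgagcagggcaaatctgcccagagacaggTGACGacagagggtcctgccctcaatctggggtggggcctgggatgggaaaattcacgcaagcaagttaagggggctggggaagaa

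Alignment of the H2-D1 and H2-K1 windows gave 170 identical bases of 250, while the other pairs of the 8 windows gave 108 to 135. In the windows of H2-D1, H2-K1 and B2m, TGACG was followed after 20 bases by ATTGG, at -101, -41 and -78 from the start. That spacing was picked out after the windows were read, and 30 of 32851 mouse windows, 0.0913%, held it on either strand. TGACG alone was in 17.8% of all windows, ATTGG in 33.8% and GAAANNGAA in 7.13%. Of the 8 genes with a window, 5 held TGACG and 6 held ATTGG. GAAANNGAA was found in B2m, at -139 to -131. Only exact matches were counted, so an interferon response element that departs from this pattern in any other window would be missed. The starts of Tap1 and Psmb9 lie 226 bases apart and point away from each other, so their windows share 225 bases. The TGACG and ATTGG matches counted for Tap1 and for Psmb9 are the same bases, read from opposite strands. A match describes the letters and shows no binding.

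Each library was made from about 1000 cells by SMARTer amplification and Nextera XT tagmentation. Total estimated counts were 7256042 to 11262368 in bottom and 6657639 to 9366913 in top. The 10 genes took 0.445% to 1.23% of the counts in bottom and 0.175% to 0.839% in top. Levels are given in CPM, the counts of a gene scaled to a common library size after TMM normalization, which corrects for the room that a few very abundant genes take. Beta cell markers were the most abundant islet markers in every top library but not in every bottom library. They summed to 38452 to 80833 CPM in bottom and 343230 to 504710 CPM in top, and Mafa, a beta cell transcription factor, was listed at 0 in every library. In bottom 1 the beta sum of 38452 CPM was below those of PP cells (77084 CPM), delta cells (52685 CPM) and alpha cells (50950 CPM). In bottom 2 the beta sum of 80833 CPM was below those of alpha cells (141810 CPM) and PP cells (91991 CPM). Insulin transcripts took 2.75% to 7.16% of the counts in bottom and 26.6% to 40.1% in top. Summed delta cell markers, led by Sst, stood at 33403 to 57801 CPM in bottom and 2649 to 5296 CPM in top. In bulk RNA such as this, fewer cells of a type and less RNA per cell cannot be told apart.

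All 10 genes had higher fitted levels in bottom than in top, and none passed the test. Their log2 fold changes, bottom over top, ran from 0.23 for Nlrc5 to 1.34 for Tap2, with a median of 0.70 beside 0.00328 over all genes tested. The edgeR quasi-likelihood test with Benjamini-Hochberg adjustment called 0 of the 10, where it called 0.282% of all genes as higher in bottom and 0.162% as lower. At an unadjusted p under 0.05 it found 1 of the 10, H2-D1, beside 5.62% of all genes higher in bottom. DESeq2 and limma-trend also called 0 of the 10, while they called 4.23% and 0.665% of all genes as higher in bottom. A positive log2 fold change was found for 50.1% of all genes.

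One library of top, top 3, was above the mean log2 level of bottom for 9 of the 10 genes, all but Tap2. The excess was 0.016 for Psmb10 and 0.166 for H2-D1, and up to 2.25 for Nlrc5. The share of all genes with top 3 above the bottom mean was not worked out. Top 3 was the highest of the 4 top libraries for 9 of the 10 genes, as it was for 28.8% of all genes tested. Its level exceeded the mean of the other 3 top libraries by 1.35-fold for Tap2 up to 16.3-fold for Nlrc5. With all 8 libraries, every one of the 10 genes overlapped between bottom and top, while 3.31% of all genes had each bottom library above each top library. Without top 3, each bottom library lay above each remaining top library for 7 of the 10 genes, beside 5.42% of all genes. The edgeR test then called 0 of the 10, where it called 0.137% of all genes as higher in bottom and 0.0885% as lower. At an unadjusted p under 0.05 it found 6 of the 10, beside 7.00% of all genes higher in bottom. All 10 genes again had positive log2 fold changes, beside 50.9% of all genes, with a median of 1.46 beside 0.0209. DESeq2 without top 3 called 5 of the 10 as higher in bottom, namely H2-D1, H2-K1, Psmb8, Psmb9 and Psmb10, beside 5.14% of all genes. Limma-trend without top 3 called H2-D1, beside 0.451% of all genes higher in bottom.

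**Figure D1:**
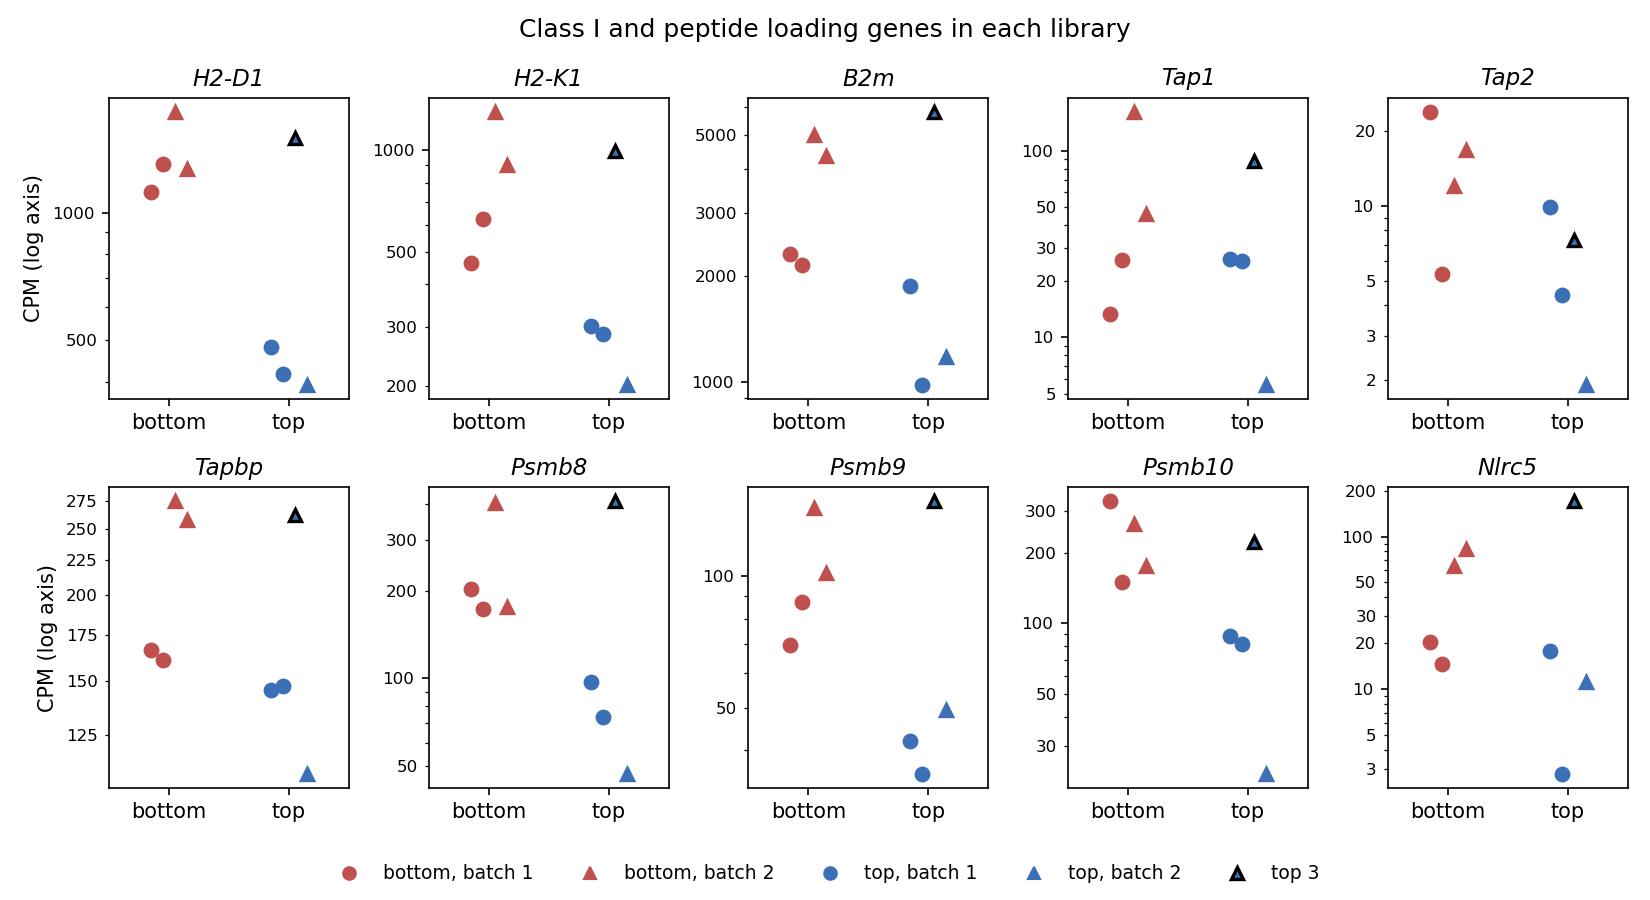
Level of each of the 10 genes in CPM on log axes, with 1 point per library, bottom left and top right. Circles are batch 1, triangles are batch 2, and the black outline marks top 3, which is the highest top library for 9 genes and the highest of all 8 libraries for B2m, Psmb8, Psmb9 and Nlrc5.

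Heavy chains form the groove that holds the peptide, and H2-D1 encodes that of the D locus. It stood at 1119, 1299, 1730 and 1267 CPM in bottom 1 to 4, against 481, 417, 1499 and 393 CPM in top 1 to 4. The bottom libraries lay close together, top 1, top 2 and top 4 lay well below them, and top 3 lay within their range. H2-D1 averaged 1354 ± 263 CPM in bottom and 697 ± 536 CPM in top (SD, n = 4 each), which the fit put at 1.05 on the log2 scale (SE 0.39, edgeR adjusted p = 0.368). Without top 3 the top mean was 430 ± 46.0 CPM (SD, n = 3) and the log2 fold change 1.61 (SE 0.24, edgeR adjusted p = 0.0556). DESeq2 and limma-trend without top 3 gave H2-D1 adjusted p-values of 2.16e-06 and 0.00855.

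H2-K1 encodes the heavy chain of the K locus. It stood at 462, 624, 1297 and 905 CPM in bottom 1 to 4, against 302, 286, 994 and 202 CPM in top 1 to 4. Both batch 2 libraries of bottom were above both of its batch 1 libraries, and top 3 lay between bottom 4 and bottom 3. The log2 fold change was 0.88 (SE 0.42, n = 4, edgeR adjusted p = 0.520), and 1.45 without top 3 (SE 0.39, edgeR adjusted p = 0.219). Without top 4 it was 0.57. The log2 ratio of H2-D1 to H2-K1 counts was 0.809 ± 0.425 in bottom and 0.691 ± 0.187 in top (SD, n = 4 each, exact permutation p = 0.686, 0.686 after adjustment over 5 ratios), a difference that turned to -0.0385 without bottom 1. That ratio was 1.28 and 1.06 in the batch 1 libraries of bottom and 0.415 and 0.485 in its batch 2 libraries, while the 4 top libraries lay between 0.542 and 0.960. RSEM divides reads that match several genes, and 6.9% of the 50-base windows of the longest coding H2-K1 transcript in GENCODE M21 also occur in an H2-D1 transcript. H2-D1 shared most with H2-Q1, in 7.4% of its windows. The sum of H2-D1 and H2-K1, which a division between these genes leaves as it is, ranged from 1581 to 3027 CPM in bottom and was 784, 703, 2493 and 594 CPM in top 1 to 4.

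B2m, the light chain that every class I molecule needs, stood at 2306, 2139, 5018 and 4351 CPM in bottom 1 to 4, against 1869, 979, 5827 and 1176 CPM in top 1 to 4. Top 3 was the highest of the 8 libraries, and the other top libraries were all below the lowest bottom library. Within bottom, the batch 2 libraries stood above both batch 1 libraries. B2m averaged 3454 ± 1449 CPM in bottom and 2463 ± 2275 CPM in top (SD, n = 4 each), which the fit put at 0.53 on the log2 scale (SE 0.42, edgeR adjusted p = 0.768). Without top 3 it was 1.13 (SE 0.36, edgeR adjusted p = 0.286), while it was 0.34 without top 2 and 0.23 without top 4. No 50-base window of the B2m transcript was shared with another gene.

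**Figure D2:**
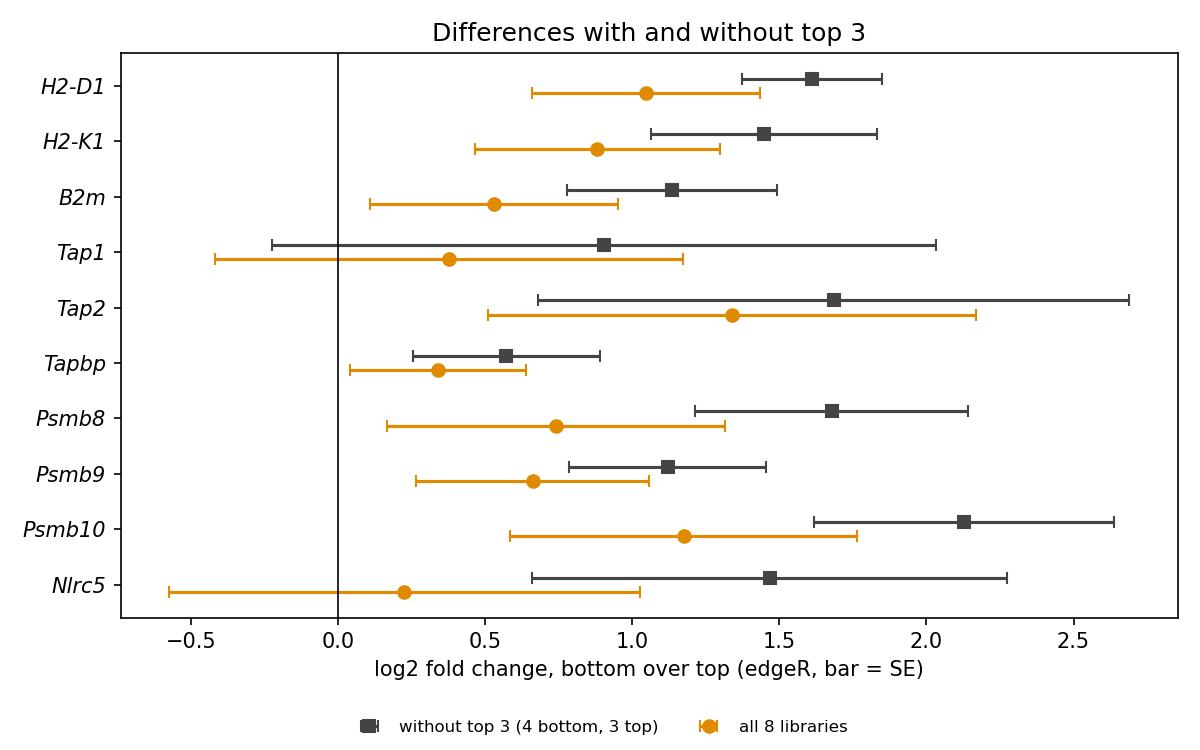
Log2 fold change of each gene, bottom over top, from the edgeR fit, with its SE as the bar. Orange circles use all 8 libraries and grey squares leave out top 3. Every estimate is positive and every one is larger without top 3, from 0.57 for Tapbp to 2.13 for Psmb10.

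Tap1 and Tap2 form the transporter that moves peptides into the endoplasmic reticulum. Tap1 stood at 13.3, 25.9, 162 and 46.0 CPM in bottom 1 to 4, against 26.2, 25.7, 88.2 and 5.56 CPM in top 1 to 4. The populations were interleaved, with bottom 1 below every top library but top 4. Its log2 fold change was 0.38 (SE 0.79, n = 4, edgeR adjusted p = 0.927), and 0.90 without top 3 (SE 1.13, edgeR adjusted p = 0.824). It turned to -0.26 without bottom 3 and to -0.16 without top 4, and it was 0.71 without bottom 1.

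Tap2 was scarce, with 220, 57, 115 and 181 counts in bottom 1 to 4, against 69, 35, 59 and 12 counts in top 1 to 4. These correspond to 24.0, 5.33, 12.1 and 16.8 CPM in bottom and 9.93, 4.39, 7.30 and 1.91 CPM in top. Bottom 2 lay within the top range and the other bottom libraries lay above it. Top 3 did not stand out for this gene. For Tap2 the log2 fold change was 1.34 (SE 0.83, edgeR adjusted p = 0.668), and 1.69 without top 3 (SE 1.0, edgeR adjusted p = 0.603). It was 0.89 without bottom 1.

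The counts do not show how many reads were divided between Tap1 and Tap2. Of the Tap1 transcript windows, of the length used for H2-K1, 0.9% also occur in a Tap2 transcript and 5.6% in a Psmb9 transcript. Tap2 shared most with Gm15821, in 9.9% of its windows. Tap1 counts were not whole numbers in 7 libraries, and in 4 of these the sum of Tap1 and Tap2 came within 0.02 of a whole number. In bottom 1, Tap1 had 122.32 and Tap2 219.68 expected counts, which sum to 342. The summed level was 37.4, 31.2, 174.5 and 62.8 CPM in bottom 1 to 4, against 36.1, 30.1, 95.5 and 7.46 CPM in top 1 to 4. The log2 ratio of Tap1 to Tap2 was 1.65 ± 1.92 in bottom and 2.25 ± 1.02 in top (SD, n = 4 each, exact permutation p = 0.60, 0.686 after adjustment over 5 ratios). Without bottom 1, where it was -0.848, the difference in means, bottom minus top, was 0.234, beside -0.60 with all 8 libraries.

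Tapbp encodes tapasin, which holds the heavy chain beside TAP until a peptide binds. It stood at 166, 161, 275 and 258 CPM in bottom 1 to 4, against 145, 147, 262 and 110 CPM in top 1 to 4. Its bottom libraries of batch 1 lay just above top 1 and top 2, and top 3 lay between bottom 4 and bottom 3. For Tapbp the log2 fold change was 0.34 (SE 0.30, n = 4, edgeR adjusted p = 0.794), and 0.57 without top 3 (SE 0.32, edgeR adjusted p = 0.567). Without top 4 it was 0.0908.

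Psmb8, Psmb9 and Psmb10 encode the catalytic subunits of the immunoproteasome, which favours peptides that fit class I molecules. Psmb8 stood at 204, 173, 401 and 176 CPM in bottom 1 to 4, against 97.4, 73.4, 408 and 46.7 CPM in top 1 to 4. Bottom 3 and top 3 were nearly level and stood apart from the rest of their populations. The log2 fold change of Psmb8 was 0.74 (SE 0.57, n = 4, edgeR adjusted p = 0.758), and 1.68 without top 3 (SE 0.46, edgeR adjusted p = 0.230). Without top 4 it was 0.43.

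Psmb9 stood at 69.6, 87.5, 143 and 102 CPM in bottom 1 to 4, against 42.0, 35.3, 149 and 49.5 CPM in top 1 to 4. Top 3 was the highest of all, and the other top libraries were below the lowest bottom library. The log2 fold change of Psmb9 was 0.66 (SE 0.40, n = 4, edgeR adjusted p = 0.652), and 1.12 without top 3 (SE 0.33, edgeR adjusted p = 0.263). Psmb9 and Tap1 also share transcribed sequence, with 12.5% of the 50-base windows of Psmb9 found in a Tap1 transcript, and the kit is not stated to keep the strand.

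Psmb10 stood at 331, 150, 265 and 175 CPM in bottom 1 to 4, against 88.2, 81.9, 222 and 22.9 CPM in top 1 to 4. It was highest in bottom 1, a batch 1 library, unlike most of the other genes, and lowest in top 4. The log2 fold change of Psmb10 was 1.17 (SE 0.59, n = 4, edgeR adjusted p = 0.558), and 2.13 without top 3 (SE 0.51, edgeR adjusted p = 0.177), the largest of the 10 genes without that library.

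The constitutive subunits that these replace, Psmb5, Psmb6 and Psmb7, had log2 fold changes of -0.30, 0.0308 and 0.14 (edgeR adjusted p = 0.851, 0.981 and 0.945). Ratios within a library do not depend on its scaling. The log2 ratio of Psmb8 to Psmb5 counts was 2.29, 0.942, 2.58 and 1.34 in bottom 1 to 4, against 0.394, -0.370, 2.21 and -0.664 in top 1 to 4. Of the top libraries, top 3 alone reached the bottom range. The means differed by 1.39 (exact permutation p = 0.114, 0.286 after adjustment over 5 ratios). Without top 3 they differed by 2.0 (exact permutation p = 0.0286, the smallest that 4 against 3 libraries allow, and 0.143 after adjustment).

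For Psmb10 to Psmb7 the log2 ratio was 1.66, 1.24, 2.27 and 0.785 in bottom 1 to 4, against 0.125, 0.541, 1.02 and -1.08 in top 1 to 4. Bottom 4 was the 1 bottom library below top 3. The means differed by 1.34 (exact permutation p = 0.0571, 0.286 after adjustment), and by 1.62 without top 3 (exact permutation p = 0.0571, 0.143 after adjustment). For Psmb9 to Psmb6 the mean log2 ratio was -1.37 ± 0.866 in bottom and -2.11 ± 1.02 in top (SD, n = 4 each, exact permutation p = 0.314, 0.524 after adjustment), and the libraries overlapped. That difference of 0.737 was 0.375 without bottom 3, 0.437 without top 2 and 1.21 without top 3. These tests were two-sided, over all 70 relabellings of the 8 libraries or, without top 3, all 35 of the 7 libraries, and none passed after adjustment. The smallest p they can give is 0.0286, so 1 ratio alone could not have passed after adjustment over 5 ratios. Relabelling within batches gave an exact permutation p of 0.167 for Psmb8 to Psmb5 and for Psmb9 to Psmb6. It gave 0.111 for Psmb10 to Psmb7, where the smallest possible is 0.0556.

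**Figure D3:**
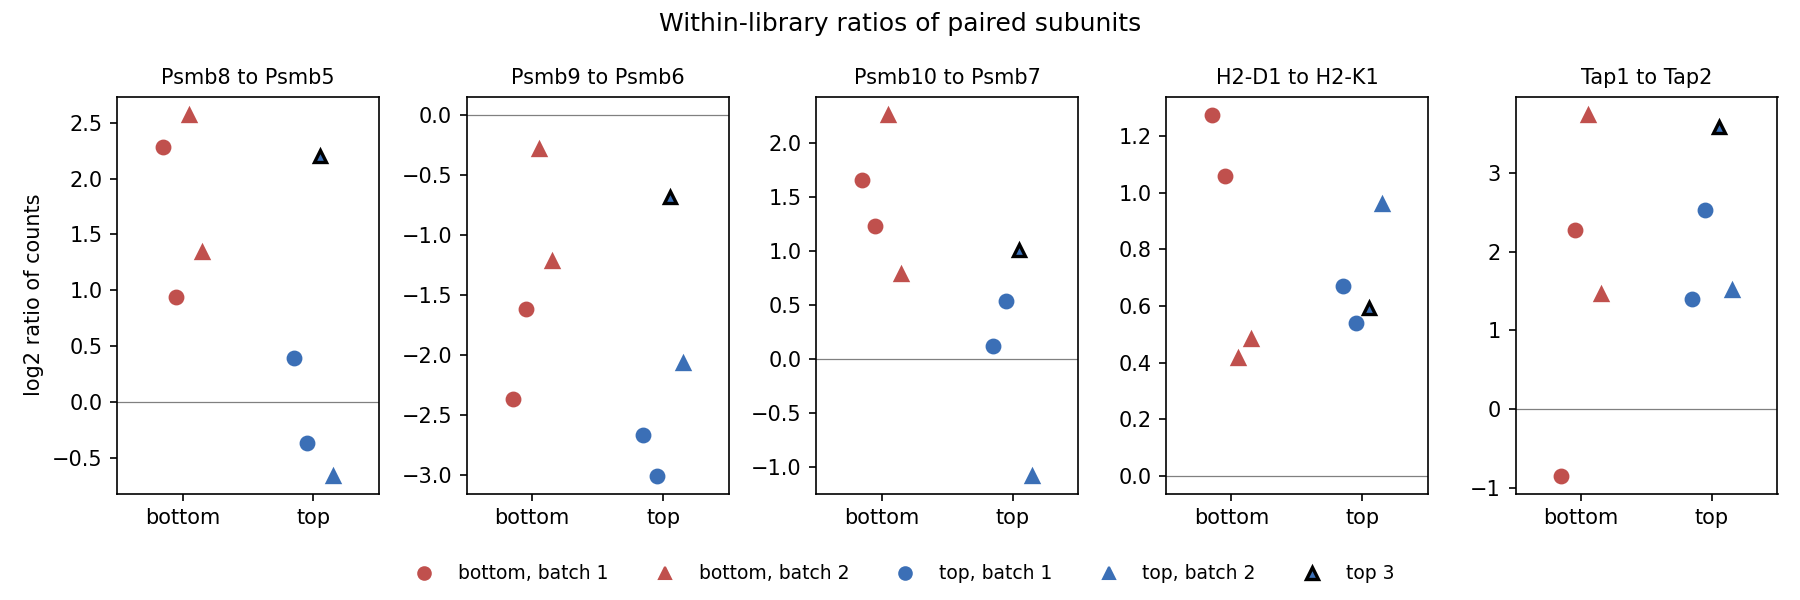
Log2 ratios of counts within each library for 3 immunoproteasome subunits over their constitutive counterparts, for H2-D1 over H2-K1 and for Tap1 over Tap2, with 1 point per library, bottom left and top right. Circles are batch 1, triangles batch 2, and the black outline marks top 3, which reached 2.21 for Psmb8 to Psmb5 while the other top libraries stayed at or below 0.394.

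Nlrc5 encodes the transactivator that binds class I promoters through the factors on the X and Y boxes. It stood at 20.4, 14.7, 64.2 and 82.4 CPM in bottom 1 to 4, against 17.7, 2.76, 171 and 11.1 CPM in top 1 to 4. Top 3 was above all other libraries, followed by the bottom libraries of batch 2. The mean was lower in bottom, at 45.4 ± 33.1 CPM, than in top, at 50.7 ± 80.6 CPM (SD, n = 4 each), while the fitted log2 fold change was 0.23 (SE 0.80, edgeR adjusted p = 0.959). Without top 3 the top mean was 10.5 ± 7.48 CPM (SD, n = 3) and the log2 fold change 1.47 (SE 0.81, edgeR adjusted p = 0.562). It turned to -0.21 without top 2 and to -0.10 without top 4. It was 0.0155 without bottom 1, 0.41 without bottom 3 and 0.64 without top 1.

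Levels in bottom also differed between the batches, with 2 libraries in each. The mean log2 level in bottom was higher in batch 2 than in batch 1 for 9 of the 10 genes, by 0.30 for H2-D1 up to 2.19 for Tap1, and differed by -0.0487 for Psmb10. The share of all genes with such a shift was not worked out, and batch itself was not tested. In top, batch 2 held both extremes of most genes, since top 3 was the highest top library for 9 genes and top 4 the lowest for 7. Top 4 was below the mean log2 level of the batch 1 top libraries for every gene but Psmb9 and Nlrc5. Within batch 1 the mean log2 level was higher in bottom for every gene but Tap1, whose difference was -0.47. The other batch 1 differences were 0.16 for Tapbp to 1.43 for H2-D1. Within batch 2 they were 0.49 for Psmb9 to 1.91 for Tap1. Top in batch 2 is top 3 and top 4 alone, and top 3 was above the mean log2 level of all bottom libraries for 9 of the 10 genes. The batch 2 differences of most genes therefore rest mainly on top 4. By the mean of log2 levels, 9 of the 10 genes were higher in bottom in both batches, beside 27.2% of all genes. Nlrc5 was among the 9, but its mean CPM in batch 2 was lower in bottom, at 73.3 CPM against 91.2 CPM in top, and edgeR on batch 2 alone gave it a log2 fold change of -0.30. The interaction of batch and population was called for 0 of 11721 genes by edgeR, while 7.55% had an unadjusted p under 0.05, none of the 10 among them.

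The same libraries were high for interferon-stimulated genes. Their summed level over 34 genes was 1480, 1436, 6428 and 4452 CPM in bottom 1 to 4, against 1439, 1128, 8196 and 1029 CPM in top 1 to 4. Bottom 3, bottom 4 and top 3 were several times above the other 5 libraries. The part of this interferon pattern in the levels of the 10 genes was not tested.

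**Figure D4:**
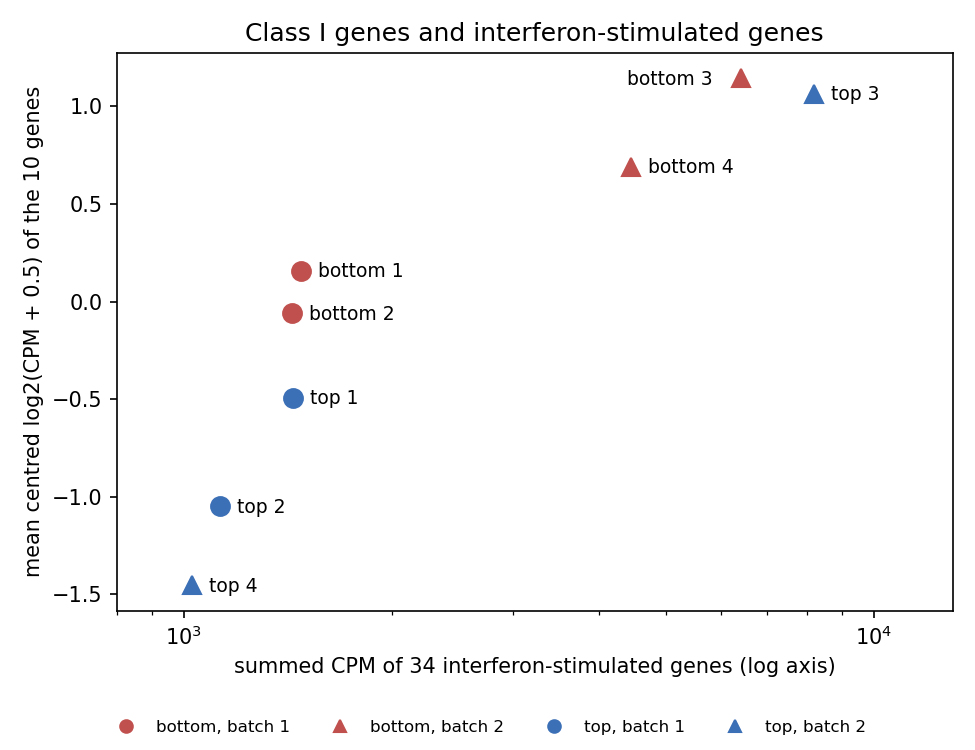
Mean of the centred log2(CPM + 0.5) of the 10 genes against the summed CPM of 34 interferon-stimulated genes on a log axis, with 1 point per library. Bottom 3, bottom 4 and top 3 lie at 4452 to 8196 CPM and at 0.69 to 1.14 on the log2 scale, and the other 5 libraries lie at 1029 to 1480 CPM and at -1.45 to 0.16.

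The 10 genes varied together across libraries. Pearson's r of their log2 levels over the 8 libraries had a median of 0.83 over 45 pairs, with a range of 0.39 to 0.96, and a median of 0.79 without top 3. These values describe 8 libraries that share their scaling and their batches. B2m, H2-K1 and Psmb8 followed the mean of the 10 genes most closely, each with r = 0.97, and Tap2 least, with r = 0.67. Each of the 10 genes is itself part of that mean, so these r cannot be set beside those of other genes. Among all other genes tested, the 5 most like that mean were Gbp2 and Rtp4, which interferon induces, D5Ertd605e, H2-Aa, an MHC class II chain, and Fabp12, with r of 0.96 to 0.97. Gbp2 stood at 136, 93.1, 364 and 375 CPM in bottom 1 to 4, against 74.1, 53.9, 683 and 23.2 CPM in top 1 to 4. Without top 3 the 5 most alike over 7 libraries were Zfhx4, Gbp2, Rgs9, Scn2a1 and Rtp4, with r of 0.97 to 0.98. Over all 8 libraries, r was 0.64 for Zfhx4 and 0.71 for Scn2a1.

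Other genes of the pathway were taken from lists, and none passed in either direction, beside the 0.282% of all genes called higher and 0.162% called lower in bottom. In the list of loading chaperones, translocon and trimming enzymes, 4 of 16 genes were above 0 on the log2 scale and the median was -0.41. Uggt1, which checks the folding of glycoproteins, stood at 61.4 ± 22.5 CPM in bottom and 162 ± 6.30 CPM in top (SD, n = 4 each, log2 fold change -1.44, SE 0.33, edgeR adjusted p = 0.115). Its libraries did not overlap. Calr, the chaperone calreticulin of the loading complex, stood at 442 ± 59.2 CPM in bottom and 751 ± 57.6 CPM in top (log2 fold change -0.76, SE 0.20, edgeR adjusted p = 0.190), also without overlap. Both genes were named for their small p. The share of all genes with each bottom library below each top library was not worked out. Sec61b, a translocon subunit, had a log2 fold change of -0.69 (edgeR adjusted p = 0.373). The loading partners Canx and Pdia3 had log2 fold changes of -0.11 and -0.0407, and the peptide trimming enzyme Erap1 one of 0.42.

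Among proteasome genes outside the immunoproteasome, the median on the log2 scale was 0.0308 for the 3 constitutive catalytic subunits and 0.16 for the 11 other subunits of the 20S core. The core subunits with the smallest p were Psma3 at 0.35, Psma2 at 0.38 and Psma4 at 0.31. The 9 genes of the PA28 activators and of proteasome assembly had a median of 0.00767. Psme1 and Psme2, the interferon-inducible PA28 subunits, had log2 fold changes of 0.86 and 0.65 (edgeR adjusted p = 0.667 and 0.589), and Psme3, a nuclear PA28 subunit, one of -0.74 (edgeR adjusted p = 0.810). Psme1 stood at 346, 266, 350 and 189 CPM in bottom 1 to 4, against 125, 147, 325 and 41.8 CPM in top 1 to 4. Psme1 thus had top 3 within the bottom range and the other top libraries below it, and without top 3 its log2 fold change was 1.72 (SE 0.43, edgeR adjusted p = 0.191).

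Among interferon receptors and signalling genes, 15 of 18 tested were above 0 on the log2 scale with a median of 0.45, and 16 of 19 without top 3 with a median of 0.68. Ifngr2, a chain of the interferon gamma receptor, stood at 43.5 ± 16.8 CPM in bottom and 15.4 ± 6.83 CPM in top (SD, n = 4 each, log2 fold change 1.51, SE 0.54, edgeR adjusted p = 0.342). Its partner Ifngr1 had a log2 fold change of 1.93 (edgeR adjusted p = 0.501), and the kinase Jak1 one of -0.78 (edgeR adjusted p = 0.371). Irf1, a factor that drives class I genes after interferon, had a log2 fold change of 0.18. Of the partners of NLRC5 and other regulators, 6 of 15 tested genes were above 0, with a median of -0.25. The smallest p in that list belonged to Rela, a NF-kappaB subunit, at 1.02 (edgeR adjusted p = 0.492), Creb1 at -1.06 (edgeR adjusted p = 0.533) and the acetyltransferase Kat2b at -1.32 (edgeR adjusted p = 0.621).

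Interferon-stimulated genes had positive values for 24 of 33 tested, with a median of 0.45, and for 27 of 33 without top 3, with a median of 0.91. Cxcl9, a T cell chemokine, stood at 0.109, 2.99, 249 and 356 CPM in bottom 1 to 4, against 0.144, 0, 35.7 and 0 CPM in top 1 to 4 (edgeR adjusted p = 0.337). Ifitm3, an antiviral membrane protein, stood at 19.0, 26.7, 137 and 341 CPM in bottom 1 to 4, against 0.863, 3.39, 57.9 and 0 CPM in top 1 to 4 (edgeR adjusted p = 0.360). For these genes the batch 2 libraries of bottom exceeded top 3, which was not so for Nlrc5 or Gbp2. Bst2, another interferon-induced antiviral gene, averaged 8.29 CPM in bottom and 0.651 CPM in top (edgeR adjusted p = 0.492).

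**Figure D5:**
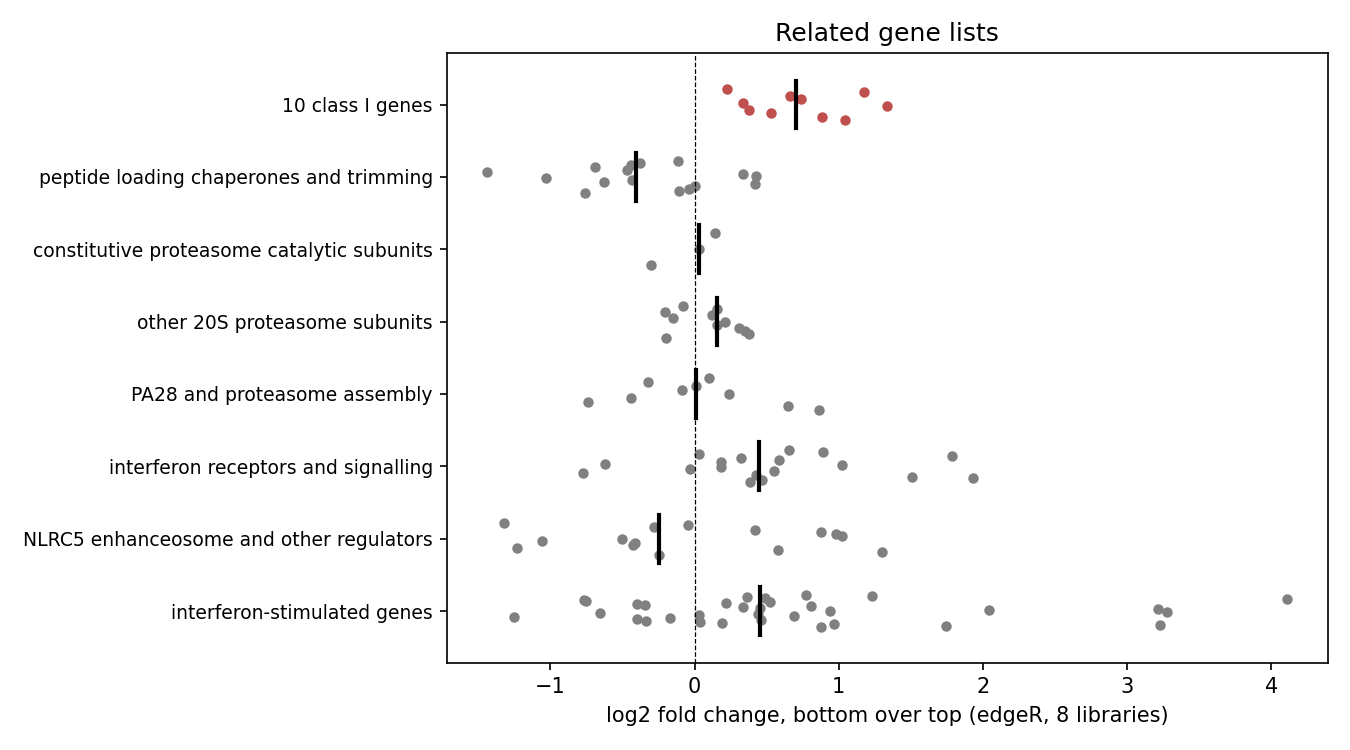
Log2 fold change, bottom over top, of every tested gene in 8 lists, with 1 point per gene and a black bar at the median of each list. The 10 class I genes, in red, all lie above 0 with a median of 0.70. The list of loading chaperones, translocon and trimming enzymes has a median of -0.41, and the constitutive catalytic subunits one of 0.0308.

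Leukocytes and endothelial cells carry much class I, so their markers were read in the same libraries. The 7 general leukocyte markers summed to 0.834 to 3.90 CPM in bottom and 0.618 to 1.91 CPM in top, with 0.618 CPM in top 3. Ptprc, the common leukocyte antigen, had 2, 3, 28 and 1 counts in bottom 1 to 4, against 0, 5, 0 and 4 counts in top 1 to 4. Macrophage markers summed to 0.328 to 2.69 CPM in bottom and 0.476 to 3.39 CPM in top, and dendritic cell markers to 2.52 to 8.34 CPM in bottom and 2.06 to 3.96 CPM in top. The macrophage genes Csf1r, Cd68 and C1qb and the dendritic genes Flt3 and Itgax were listed at 0 in every library. Other genes of the same lists were not at 0, since C1qa had 3 to 29 counts in bottom and 3 to 21 counts in top, Xcr1 had 27 to 50 counts in bottom and 13 to 32 counts in top, and Zbtb46 had 53 counts in bottom 4 alone. The 4 B cell markers summed to 0.218 to 0.843 CPM in bottom and 3.52 to 14.7 CPM in top. The 6 T cell markers, of which 5 were in the table, summed to 6.08 to 15.2 CPM in bottom and 1.75 to 6.19 CPM in top. Of these, Cd3e had at most 1 count in any library, while Lck had 118, 53, 31 and 55 counts in bottom 1 to 4, against 31, 7, 4 and 5 counts in top 1 to 4. Cd3d had 13, 11, 25 and 15 counts in bottom 1 to 4, against 7, 3, 23 and 6 counts in top 1 to 4. Cd2 had 6, 1, 25 and 5 counts in bottom 1 to 4, against 4, 16, 5 and 0 counts in top 1 to 4. Cd3g had at most 3 counts in any library. The excess of T cell markers in bottom was largest for Lck and was not seen for Cd3e or Cd3g. The part of T cells in the class I levels was not tested.

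Among markers of other islet and tissue cells, edgeR called 3 of 3 delta, 2 of 2 PP and 2 of 3 fibroblast markers tested as higher in bottom, and 3 of 8 beta markers tested as lower. The lists hold 4 delta, 7 fibroblast and 9 beta markers, and those with too few counts were not tested. No call was made among the 7 acinar, 6 duct, 5 alpha, 3 intestinal and 1 endothelial markers tested. The 6 endothelial markers summed to 6.88, 6.08, 29.5 and 128 CPM in bottom 1 to 4, against 0.124 to 8.26 CPM in top. The 7 fibroblast markers summed to 3.28, 180, 191 and 769 CPM in bottom 1 to 4, against 0.251 to 12.4 CPM in top. PP cell hormones summed to 11342 to 91991 CPM in bottom and 1196 to 2356 CPM in top. Acinar markers summed to 113 to 990 CPM in bottom and 19.7 to 189 CPM in top, duct markers to 276 to 764 CPM in bottom and 139 to 396 CPM in top, and alpha cell markers to 28937 to 141810 CPM in bottom and 65052 to 138020 CPM in top. Intestinal markers summed to 10956 CPM in bottom 1 and 2640 CPM in bottom 2, beside 12.7 to 39.0 CPM in the other bottom libraries and 50.6 to 676 CPM in top. The part of delta cells, PP cells and the other cell types in the class I levels was not tested.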

How the data were processed

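The authors deposited expected counts, which RSEM estimates per gene, in separate files per library and again in a joint table, whose values differed by 0 at most. Per the submitters' processing notes, the tools were RSEM and edgeR and the build was mm9. The aligner, annotation and versions are not given in the sources used here. Of 80 values of the 10 genes, 66 were not whole numbers. All counts were rounded to whole numbers.

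Genes were tested with edgeR 4.0.16 (quasi-likelihood, TMM, filterByExpr by population, batch as covariate) in R 4.3.3, over all 11721 genes that passed, at a Benjamini-Hochberg adjusted p under 0.05. SE is the log2 fold change over the root of the edgeR F statistic. The common biological coefficient of variation was 0.806. Levels without top 3 use the scaling of all 8 libraries, while the fit without it was rescaled over 12423 genes. Alternatives used limma 3.58.1 and DESeq2 1.42.0. Subunit ratios took log2 of counts with 0.5 added, and log2 levels took CPM with 0.5 added. The edgeR steps were tested on simulated data.

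The 10 genes, the lists and the tests were chosen with earlier results of these data known. Genes named from lists are those called or, with none called, the 3 with the smallest p. Canx, Pdia3, Erap1 and Irf1 were added for their roles, after their values were seen. Precision is limited by counting error and by amplified reads without molecular identifiers, at 12 to 47641 counts per gene and library for the 10 genes. Promoters came from RefSeq by symbol, aligned with Biopython 1.88, in a build other than that of the files. Shared transcript sequence was searched in GENCODE M21.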

Additional observations from a re-analysis of the deposited data

Results flagged for a closer look

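In groups of 4 libraries, a library was picked out when its gap to the nearest of the others exceeded 0.829 of the whole range. For normally distributed values, chance picks about 1 in 20 groups. The rule was applied to CPM without logs, for which the chance rate was not worked out. Of 34 groups checked, 8 were picked out, 7 of them for top 3, and the genes are not independent of each other. H2-D1 was at 1499 CPM in top 3, against 393 to 481 CPM in the other top libraries. H2-K1 was at 994 CPM in top 3, against 202 to 302 CPM. Psmb8 was at 408 CPM in top 3, against 46.7 to 97.4 CPM. Psmb9 was at 149 CPM in top 3, against 35.3 to 49.5 CPM, and Nlrc5 at 171 CPM, against 2.76 to 17.7 CPM. The summed level of the 10 genes was 9629 CPM in top 3, against 2017 to 3080 CPM, and that of the interferon-stimulated genes was 8196 CPM, against 1029 to 1439 CPM. In bottom, Psmb8 was at 401 CPM in bottom 3, against 173 to 204 CPM in the other bottom libraries.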

How the results depend on the processing

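Over 20 alternatives, the log2 fold change stayed positive for 8 of the 10 genes in every one, and for Tap1 in 16 and Nlrc5 in 15. The exceptions were -0.43 for Tap1 in batch 1 alone, -0.16 for Nlrc5 without the batch term, -0.30 for Nlrc5 in batch 2 alone, and -0.0374 for Tap1 and -0.61 for Nlrc5 with a replicate block of batch and title number. Omissions of 1 library gave -0.26 to 0.90 for Tap1 and -0.21 to 1.47 for Nlrc5, with -0.16 for Tap1 and -0.10 for Nlrc5 without top 4. Calls among the 10 were 0 in every alternative except DESeq2 without top 3, with 5, and limma-trend without top 3, with 1. Those 2 alternatives were chosen after seeing the data. Under DESeq2 without top 3 the adjusted p was 0.00895 for H2-K1 and Psmb8, 0.0121 for Psmb9 and 0.00112 for Psmb10.

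Over all genes, the 52 calls became 842 with DESeq2, 137 with limma-trend, 204 with no filter on low counts, 32 when batch was left out of the model, 2 in each batch alone, 1042 with DESeq2 and 90 with limma-trend without top 3. Omissions gave 8 to 60 calls. Leaving out top 1 gave 12, top 2 gave 8, top 3 gave 28 and top 4 gave 14, while leaving out bottom 2 gave 33, bottom 3 gave 23 and bottom 4 gave 11. The replicate block gave 0 calls. It compares bottom and top within a block only for title number 1, which joins bottom 1 with top 1 and bottom 3 with top 3. The deviations of these libraries had correlations of 0.0899 in batch 1 and -0.000326 in batch 2. The title numbers were therefore not taken to pair libraries. The interaction had 71 calls without the low-count filter and 0 in every omission. Plain library totals moved the median log2 fold change of all genes to 0.34, and that of the 10 genes to 1.06.

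The difference in the H2-D1 to H2-K1 log2 ratio was -0.326 in batch 2 alone and -0.0385 to 0.249 in omissions. That of Tap1 to Tap2 was 0.0521 in batch 2 alone and -1.29 to 0.234 in omissions. Omissions gave 1.04 to 2.0 for Psmb8 to Psmb5, 0.375 to 1.21 for Psmb9 to Psmb6 and 0.925 to 1.62 for Psmb10 to Psmb7. The cause was not tested. At 12 to 220 counts, Tap2 was the gene most limited by depth.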
